A study of Mus musculus with 112 samples.

Results

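The genes described here encode the main structural proteins of the basement membrane. They are 3 laminin alpha chains (Lama1, Lama4 and Lama5), a laminin beta chain (Lamb1), a laminin gamma chain (Lamc1), both chains of the common collagen IV trimer (Col4a1 and Col4a2), the linker proteins nidogen (Nid1) and perlecan (Hspg2), and the collagen-binding glycoprotein SPARC (Sparc). They were taken by symbol from the count tables and make up 10 of the 25209 genes counted, and all 10 were counted in every library. Each library was one RNA-seq sample of V6.5 mouse embryonic stem cells (ESCs) or of cells differentiated from them, and the libraries fall into 34 groups. Untreated ESCs in naive medium were LSD1 KO (n = 6), LSD1 CI (n = 4), RCOR1 KO (n = 4), RCOR2 KO (n = 4), RCOR1/2 DKO (n = 4), MLL4 KO (n = 2), MLL4/LSD1 DKO (n = 4), MLL4 KO with LSD1 CI (n = 4) and WT (n = 11). LSD1 is a histone demethylase encoded by Kdm1a. LSD1 KO cells lack its promoter and first exon, and LSD1 CI cells carry catalytically inactive LSD1 at the endogenous gene. RCOR1 and RCOR2 are scaffolds of the CoREST complex that holds LSD1, DKO marks loss of both genes named, and MLL4 is a histone methyltransferase of enhancers encoded by Kmt2d. Untreated embryoid bodies (EBs), grown in hanging drops for 6 days, were LSD1 KO (n = 2), LSD1 CI (n = 4), RCOR1 KO (n = 4), RCOR2 KO (n = 2), RCOR1/2 DKO (n = 4) and WT (n = 7). A485, which inhibits the acetyltransferases P300 and CBP, or its solvent DMSO was given to LSD1 KO ESCs (n = 2 each). EBs of the same experiment were LSD1 KO with A485, LSD1 KO with DMSO and WT with DMSO (n = 2 each). Cells differentiated in serum for 4 days and epiblast-like cells (EpiLCs, 2 days) were LSD1 KO with A485, LSD1 KO with DMSO, LSD1 CI with DMSO and WT with DMSO (n = 2 each). The labels call the serum cells and EpiLCs embryonic stem cells, but their naive pluripotency markers summed to 552 to 613 CPM in WT EpiLCs and 665 to 678 CPM in WT serum cells, against 3616 to 4682 CPM in WT ESCs, and formative markers to 3513 to 3589 CPM in WT EpiLCs, against 144 to 378 CPM in WT ESCs. Doxycycline (DOX) induced an LSD1 transgene in LSD1 KO ESCs (LSD1Res, n = 4 with and 4 without DOX) and in RCOR1/2 DKO ESCs (DKO + LSD1, n = 4 with and 4 without DOX), and LSD1 KO ESCs with no transgene were its control (n = 2 with and 2 without DOX). Per the methods of the study the mutants came from 2 independent clones, but the labels do not tie libraries to clones, so p-values measure the spread between these samples, part of which may be technical.

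Basement membranes are thin sheets of matrix on which epithelia, endothelium and muscle rest. Laminins are trimers of an alpha, a beta and a gamma chain that assemble on the cell surface through integrins and dystroglycan, and the alpha chain sets which receptors a trimer binds. A separate network of collagen IV gives the sheet its mechanical strength, and nidogen and perlecan join the collagen IV and laminin layers. In the early mouse embryo the trimer with the Lama1 chain is a main laminin of the first basement membranes, parietal endoderm secretes large amounts of laminin, collagen IV and SPARC, and the Lama4 chain is best known from endothelium, muscle and nerve.

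The same 3 laminin chain genes were called in untreated LSD1 KO and in RCOR1/2 DKO ESCs against WT ESCs. The 250 bases before their annotated starts are shown first, read 5′ to 3′ on the + strand of the mouse genome build mm9 (NCBIM37). They are Lama1 (chr17:68046355-68046604), Lama4 (chr10:38685071-38685320) and Lamb1 (chr12:31949908-31950157), and no annotated exon of the count tables lies in these windows. Capitals mark matches on either strand to 3 short promoter motifs, the GC box (GGGCGG), the CCAAT box (CCAAT) and the TATA box (TATAAA), none of which overlap each other here.
Lama1: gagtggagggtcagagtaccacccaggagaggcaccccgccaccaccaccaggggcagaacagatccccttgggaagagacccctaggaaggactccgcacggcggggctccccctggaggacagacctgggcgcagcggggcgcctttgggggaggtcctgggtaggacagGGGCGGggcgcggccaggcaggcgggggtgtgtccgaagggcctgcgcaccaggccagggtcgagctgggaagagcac
Lama4: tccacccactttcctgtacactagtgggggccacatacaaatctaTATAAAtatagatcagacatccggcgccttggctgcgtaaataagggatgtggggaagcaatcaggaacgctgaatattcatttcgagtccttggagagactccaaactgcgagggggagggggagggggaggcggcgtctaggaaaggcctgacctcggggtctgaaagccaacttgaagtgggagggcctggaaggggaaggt
Lamb1: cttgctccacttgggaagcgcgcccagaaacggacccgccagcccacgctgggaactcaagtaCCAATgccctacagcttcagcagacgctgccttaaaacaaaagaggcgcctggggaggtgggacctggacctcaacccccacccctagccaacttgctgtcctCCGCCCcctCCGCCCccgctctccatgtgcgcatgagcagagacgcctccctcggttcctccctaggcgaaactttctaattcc
The Lama1 window held a GC box and the Lamb1 window held 2 GC boxes and a CCAAT box. The Lama4 window held only a match to TATAAA, which lay 205 to 200 bases before the annotated start. Among windows of 250 bases before 24939 genes, 40.3% held a GC box, 35.4% a CCAAT box and 12.2% a TATA box. Of the 10 basement membrane genes, 7 had a GC box (not Lama4, Col4a1 or Sparc), 4 had a CCAAT box (Lamb1, Col4a1, Col4a2 and Nid1) and Lama4 alone had a TATAAA match. Searches for GATAA (in 21.1% of all windows) and ACAAT (in 25.5%) found no match in the 10 windows, and CCACNCCC (in 17.2%) was found before Lamc1 and Hspg2. GC content was 71.2% for Lama1, 54.0% for Lama4 and 62.0% for Lamb1, against a median of 54.4% over all windows. These matches describe letters and not factor binding. Col4a1 (chr8:11198423-11312826, - strand) and Col4a2 (chr8:11312805-11449287, + strand) lie head to head on mm9 and overlap at their annotated starts, and the counting used strand.

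Depth ran between 17.2 M and 58.2 M counts per library (median 39 M). Levels are given as CPM, the counts of a gene scaled to a fixed total per library. The targeted genes mostly followed the labels. Kdm1a was at 3.43 to 6.85 CPM in LSD1 KO ESCs, against 141 to 226 CPM in WT ESCs. Rcor2 was at 0.674 to 4.46 CPM in RCOR2 KO ESCs, against 87.4 to 104 CPM in WT ESCs, but the 2 libraries labelled RCOR2 KO EBs held 53.8 and 44.6 CPM, against 121 to 153 CPM in WT EBs. Kmt2d stood at 222 and 228 CPM in the libraries labelled MLL4 KO, against 307 to 746 CPM in WT ESCs. In MLL4/LSD1 DKO ESCs it stood at 154 to 204 CPM, and in MLL4 KO with LSD1 CI it stood at 197, 211, 344 and 398 CPM, which overlap the WT range and were not called lower (-0.83). Changes in RCOR2 KO EBs and in the MLL4 groups are therefore changes in libraries so labelled. The 6 untreated LSD1 KO ESC libraries and WT ESC libraries 1 to 3 had 0 counts on unplaced contigs, while each of the other libraries had at least 4241, so these 9 libraries appear to have been aligned differently.

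The order of the genes by level differed between WT ESCs and WT EBs. Per kilobase of exon, Sparc led in WT ESCs at a mean of 115 CPM per kb, followed by Lamc1 (84.3) and Nid1 (59.6). Lama5 (24.2 ± 5.44 CPM per kb, SD, n = 11) and Hspg2 (23.6 ± 4.74 CPM per kb) came next and did not differ beyond their spread. The same was true of Lama1 (12.1 ± 4.00 CPM per kb) and Lamb1 (9.39 ± 1.73 CPM per kb) after them. Both collagen IV genes and Lama4 were close to absent from WT ESCs, at 1.25 (Col4a1), 0.439 (Col4a2) and 0.164 (Lama4) CPM per kb. Of these 3 alpha chain genes, Lama5 and Lama1 thus led in naive WT ESCs. In WT EBs Sparc still led at 96.0 CPM per kb, followed by Lamb1 (52.1), Col4a1 (43.7 ± 12.4), Lama5 (37.9), Hspg2 (36.8), Lamc1 (34.9) and Col4a2 (24.96). The means of Lamb1, Lama5, Hspg2 and Lamc1 lay within 1 SD of that of Col4a1. Lama4 and Lama1 closed the order in WT EBs at 5.44 and 5.32 CPM per kb.

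**Figure D1:**
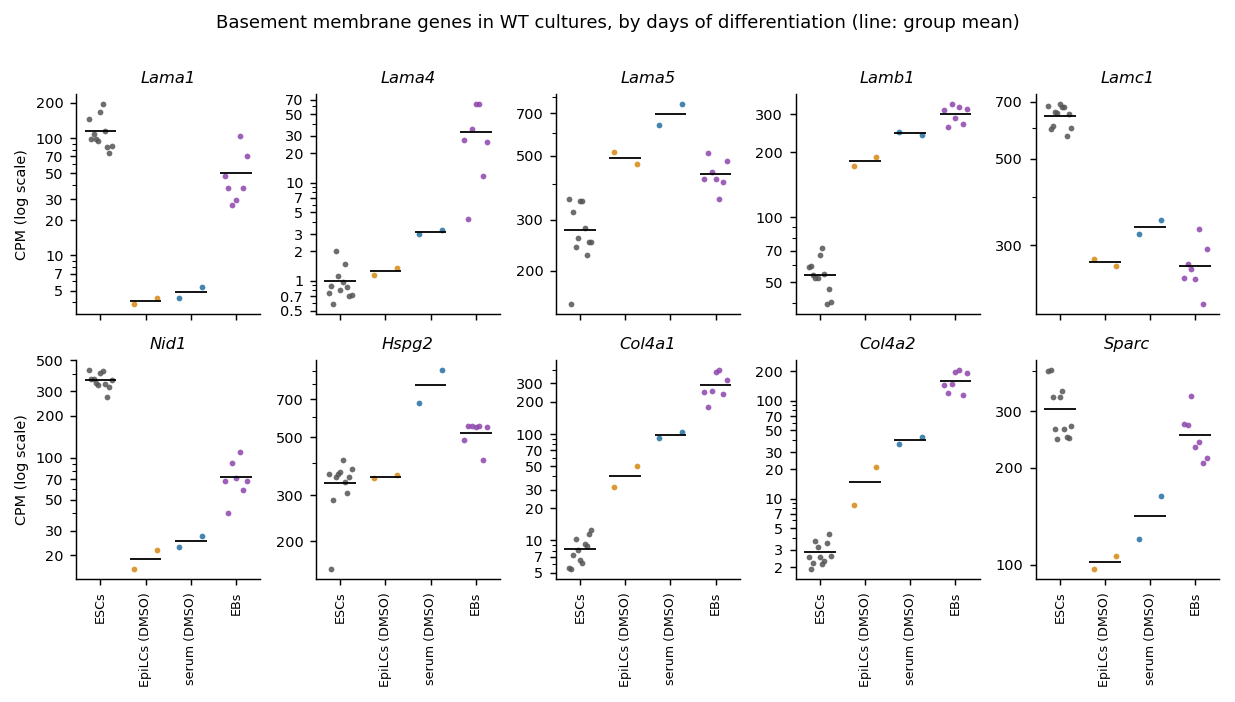
CPM per library (log scale) of the 10 genes in WT ESCs (n = 11), WT EpiLCs with DMSO (n = 2), WT serum cells with DMSO (n = 2) and WT EBs (n = 7), ordered by days of differentiation. Points are libraries and lines are group means. Col4a1 spans 178 to 403 CPM in EBs and 5.37 to 12.6 CPM in ESCs, and Nid1 falls in the opposite direction with 40.2 to 110 CPM in EBs and 275 to 430 CPM in ESCs.

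EB differentiation of WT cells changed 7 of the 10 genes. A gene was called when its Benjamini-Hochberg adjusted p in edgeR's quasi-likelihood test was below 0.01 and its log2 fold change beyond 1 in either direction, and every adjusted p in the text comes from that test. Of all 17842 genes tested between EBs and ESCs, 36.6% were called. Collagen IV made the largest change. Col4a1, which encodes the alpha1 chain, had a lowest, median and highest level of 178, 253 and 403 CPM in WT EBs, against 5.37, 8.12 and 12.6 CPM in WT ESCs (log2 fold change 4.98, SE 0.18, adjusted p = 3.17e-16). Its partner Col4a2 had 116, 150 and 209 CPM in WT EBs, against 1.91, 2.55 and 4.41 CPM in WT ESCs (log2 fold change 5.68, SE 0.19, adjusted p = 8.49e-17). No EB library overlapped an ESC library for either gene. Lama4 had 4.23, 27.4 and 63.0 CPM in WT EBs, against 0.584, 0.871 and 2.02 CPM in WT ESCs, and rose by 4.88 (SE 0.39, adjusted p = 2.75e-10). Lamb1, the beta chain, had 262, 315 and 334 CPM in WT EBs, against 39.7, 54.3 and 72.3 CPM in WT ESCs, and rose by 2.29 (SE 0.12, adjusted p = 1.20e-13). In the other direction, Nid1 fell by 2.49 (SE 0.17, adjusted p = 1.10e-11), Lamc1 fell by 1.45 (SE 0.08, adjusted p = 5.13e-13) and Lama1 fell by 1.38 (SE 0.27, adjusted p = 0.000109) on the log2 scale. Lama1 was the exception to the clean separation, at 26.9 to 105 CPM in EBs, against 75.0 to 195 CPM in ESCs. Lama5 (0.46), Hspg2 (0.47) and Sparc (-0.46) were not called. EBs hold many cell types, and in such bulk RNA more or fewer cells of a type cannot be told apart from more or less RNA per cell. The summed endoderm markers stood at 307 to 714 CPM in WT EBs, against 14.3 to 21.0 CPM in WT ESCs, with 11 of 14 called higher. The mesenchymal markers summed to 1674 to 3449 CPM in WT EBs, against 1703 to 2506 CPM in WT ESCs, with 9 of 12 called higher, and the naive pluripotency markers to 198 to 467 CPM in WT EBs, against 3616 to 4682 CPM in WT ESCs. Of the mesenchymal markers, Fn1 alone averaged 2305 CPM in WT EBs with DMSO and 2052 CPM in LSD1 KO ESCs with DMSO, so it weighs heavily in such sums. The part of these markers in the changes was not tested.

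Serum differentiation and EpiLC conversion shared the loss of Lama1 and the gain of Lamb1 and collagen IV, while Lama4 was not called in either. In this comparison solvent, experiment and culture cannot be told apart, since the WT EpiLCs and serum cells were given DMSO and the WT ESCs were not. Lama1 had 3.86 and 4.30 CPM in WT EpiLCs and 4.33 and 5.36 CPM in WT serum cells, against 75.0 to 195 CPM in WT ESCs, with log2 fold changes of -4.78 and -4.64. Of 17842 genes 16.7% were called in EpiLCs and 20.9% in serum cells, and of the 10 genes 7 were called in EpiLCs and 8 in serum cells. Nid1 stood at 15.8 and 21.8 CPM in EpiLCs (log2 fold change -4.21) and at 22.7 and 27.5 CPM in serum cells (log2 fold change -3.91), against 275 to 430 CPM in WT ESCs. Col4a1 stood at 31.8 and 49.6 CPM in EpiLCs (log2 fold change 2.38) and at 91.4 and 104 CPM in serum cells (log2 fold change 3.53), between the ESC and EB levels. Col4a2 (2.48 and 3.77) and Lamb1 (1.78 and 2.10) were called with them in EpiLCs and serum cells, and Sparc fell in both (-1.55 and -1.18). Lamc1 was called in EpiLCs (-1.20) and Lama5 (1.27) and Hspg2 (1.19) in serum cells. The serum call of Sparc was lost without WT serum replicate 1 (-0.996, adjusted p = 0.0294) and that of Hspg2 without replicate 2 (0.99), and without replicate 2 Lamc1 was called too (-1.03). By level per kilobase, Lama5 had the highest mean in both cultures, at 43.2 CPM per kb in WT EpiLCs and 61.1 CPM per kb in WT serum cells. Lama1 (0.429 and 0.509) and Lama4 (0.208 and 0.524) were the lowest. The mean levels of Lama5, Hspg2 (55.8) and Sparc (53.6) in serum cells rest on 2 libraries each and did not differ beyond their spread.

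Of the laminin alpha chains, Lama4 was higher and Lama1 lower in untreated LSD1 KO ESCs than in WT ESCs. Of 17603 genes tested between LSD1 KO and WT ESCs 21.0% were called, and of the 10 basement membrane genes 4 were called, 2 in each direction. The median log2 fold change of the 10 genes was 0.10, and that of all genes was -0.08. Lama4, the alpha chain that WT ESCs barely expressed, had 35.1, 45.2, 29.4, 40.1, 29.8 and 33.8 CPM in the 6 LSD1 KO libraries, against 0.584, 0.871 and 2.02 CPM (lowest, median and highest) in 11 WT libraries. This is a 35.9-fold difference with no overlap (log2 fold change 5.17, SE 0.24, adjusted p = 2.81e-20). Lama1 had 28.7 to 30.7 CPM in LSD1 KO ESCs (mean 29.7 ± 0.769, SD, n = 6), against 75.0, 99.0 and 195 CPM in WT ESCs, and fell by 1.95 (SE 0.22, adjusted p = 2.46e-09). Lamb1 had 221, 182, 197, 171, 205 and 159 CPM in LSD1 KO ESCs, against 39.7, 54.3 and 72.3 CPM in WT ESCs, and rose 3.50-fold (log2 fold change 1.81, SE 0.13, adjusted p = 4.74e-15). Hspg2 had 107, 132 and 171 CPM in LSD1 KO ESCs, against 157, 353 and 409 CPM in WT ESCs, and fell by 1.29 (SE 0.12, adjusted p = 7.04e-12). For Hspg2 the groups overlapped through WT library 2. Sparc was higher in each LSD1 KO library (503 to 586 CPM) than in each WT library (246 to 404 CPM), but its log2 fold change of 0.82 stayed below the size asked for. Lama5, Lamc1, Nid1, Col4a1 and Col4a2 had log2 fold changes of -0.03, 0.23, 0.46, -0.53 and -0.81 and were not called. Endoderm markers summed to 32.5 to 58.3 CPM in LSD1 KO ESCs, against 14.3 to 21.0 CPM in WT ESCs, with 5 of 14 called higher (Dab2 by 4.70) and 2 lower (Sox7 by -3.58). Endothelial markers summed to 226 to 247 CPM in LSD1 KO ESCs, against 102 to 156 CPM in WT ESCs, with 1 of 7 tested called and Emcn at 0 in both groups. Dab2 alone held 8.14 to 22.5 CPM in LSD1 KO ESCs, against 0.206 to 1.03 CPM in WT ESCs. Of the endothelial markers, Pecam1 alone averaged 96.8 CPM in WT ESCs. The part of these markers in the laminin changes was not tested. Naive pluripotency markers were at 4268 to 4760 CPM in LSD1 KO ESCs and 3616 to 4682 CPM in WT ESCs.

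**Figure D2:**
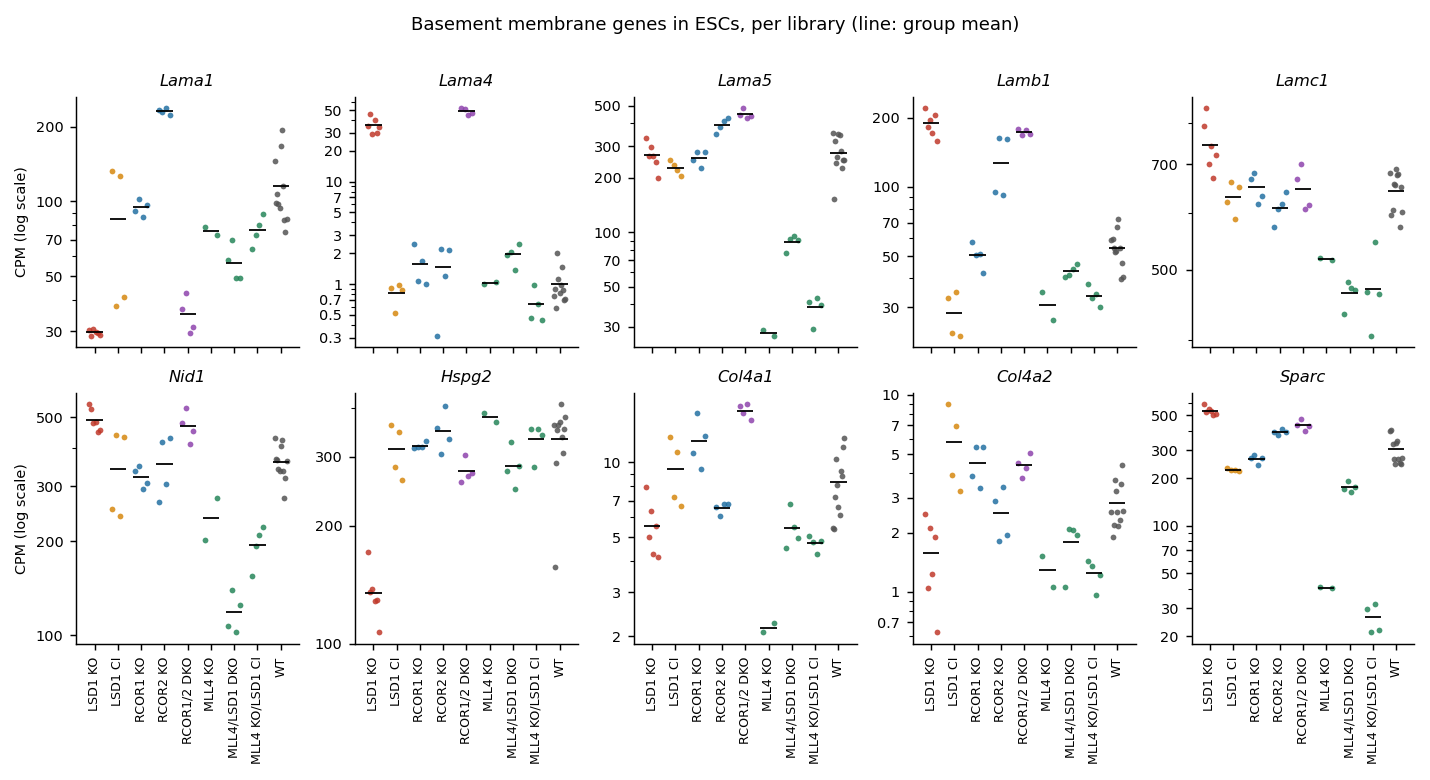
CPM per library (log scale) of the 10 genes in 8 mutant ESC groups and WT ESCs (n = 11), with lines at group means. Lama4 stands at 29.4 to 45.2 CPM in LSD1 KO and 44.9 to 52.3 CPM in RCOR1/2 DKO ESCs, above the WT range of 0.584 to 2.02 CPM, and Sparc at 40.6 and 40.1 CPM in MLL4 KO ESCs, below the WT range of 246 to 404 CPM.

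The other LSD1 KO libraries shared the called rises of Lama4 and Lamb1 but not the called falls of Lama1 and Hspg2. In comparisons chosen after the data were seen, the 2 LSD1 KO ESC libraries with DMSO were set against WT libraries 4 to 11. Lama4 had 33.5 and 32.1 CPM in them (log2 fold change 4.72) and Lamb1 had 227 and 241 CPM (1.97), and both were called. Lama1 had 110 and 109 CPM (-0.23, adjusted p = 0.636) and Hspg2 had 363 and 367 CPM (-0.13, adjusted p = 0.607), and neither was called. LSD1 KO ESCs without DOX gave the same picture for Lama4 (33.2 and 24.1 CPM, 4.64) and Lamb1 (173 and 158 CPM, 1.58), and values in between for Lama1 (58.4 and 53.5 CPM, -1.09, adjusted p = 0.0154). There Col4a2 was called higher (5.17 and 11.4 CPM, 1.42), although it was lower in the untreated LSD1 KO libraries (-0.81, not called). With the alignment difference as a term in the fit, the log2 fold changes of Lama1, Lama4, Lamb1 and Hspg2 in untreated LSD1 KO ESCs were -2.05, 5.52, 1.66 and -1.05, all called. The falls of Lama1 and Hspg2 were thus called in the untreated libraries but in neither other set, although Lama1 without DOX lay below every WT library, and what differs between these sets of libraries was not tested.

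Catalytically inactive LSD1 left the 10 genes without a call. None was called in LSD1 CI against WT ESCs by edgeR or by DESeq2, where 5 had an unadjusted p below 0.05 and 3.24% of all genes were called. Lama4 had 0.905, 0.526, 0.980 and 0.881 CPM in LSD1 CI ESCs, against 0.584 to 2.02 CPM in WT ESCs, which overlap them (log2 fold change -0.32). Lamb1 had 33.0, 23.04, 34.7 and 22.5 CPM in LSD1 CI ESCs, below every WT library, with a log2 fold change of -0.99 (adjusted p = 2.82e-05) just inside the limit. It was called without LSD1 CI replicate 1 (-1.07) or 3 (-1.11), and Col4a2 (1.00, adjusted p = 0.00588) without replicate 2 (1.14) or 4 (1.20). The libraries alternated for Lama1, at 133 and 127 CPM in replicates 1 and 3 and 38.1 and 41.3 CPM in replicates 2 and 4, and for Nid1, at 254 and 241 CPM in replicates 1 and 3 and 440 and 434 CPM in replicates 2 and 4. Set directly against LSD1 CI, LSD1 KO ESCs differed in 6 of the 10 genes, where 16.0% of all genes were called. Lama4 (5.49, SE 0.37, adjusted p = 1.85e-14), Lamb1 (2.80, SE 0.19) and Sparc (1.30, SE 0.14) were higher in LSD1 KO. Col4a2 (-1.80), Lama1 (-1.46) and Hspg2 (-1.16) were lower in LSD1 KO. Sparc (0.75) and Hspg2 (-0.85) were no longer called with the alignment difference as a term.

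RCOR1/2 DKO ESCs had higher Lama4 and Lamb1 and lower Lama1 than WT ESCs, and Lama4 was called in neither single RCOR mutant. In RCOR1/2 DKO ESCs, Lama4 had 52.3, 50.8, 44.9 and 46.7 CPM, against 0.584, 0.871 and 2.02 CPM in WT ESCs (43.9-fold, log2 fold change 5.46, SE 0.25, adjusted p = 2.09e-20). Lamb1 had 178, 169, 177 and 170 CPM in RCOR1/2 DKO ESCs, against 39.7 to 72.3 CPM in WT ESCs (1.52, SE 0.14, adjusted p = 1.30e-11). Lama1 had 36.7, 42.6, 29.6 and 31.2 CPM in RCOR1/2 DKO ESCs, below all WT libraries (-1.88, SE 0.26, adjusted p = 2.82e-07). These 3 genes were called, where 17.7% of all genes were called, and no library of RCOR1/2 DKO overlapped the WT range for any of the 3. Hspg2 was not called. Summed endoderm markers were at 94.2 to 111 CPM in RCOR1/2 DKO ESCs, against 14.3 to 21.0 CPM in WT ESCs, with 5 of 14 called higher and 1 lower. Of this sum Dab2 alone held 69.9 to 81.0 CPM in RCOR1/2 DKO ESCs, against 0.206 to 1.03 CPM in WT ESCs. The part of these markers in the result was not tested. RCOR1 KO ESCs had no call among the 10 genes by edgeR or DESeq2, with 4 at an unadjusted p below 0.05 and 0.142% of all genes called. RCOR2 KO ESCs kept Lama4 low, at 0.312, 2.21, 1.19 and 2.15 CPM. Lama1 was higher there, at 233, 228, 238 and 224 CPM (1.05, SE 0.22, adjusted p = 0.000725), as was Lamb1, at 94.7, 163, 91.9 and 161 CPM (1.28, SE 0.14, adjusted p = 1.81e-08). These 2 genes were called where 3.85% of all genes were. Neither was called against WT libraries 6 and 7 alone, which are listed beside RCOR2 KO in the series (Lama1 0.36 and Lamb1 0.88).

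MLL4 KO ESCs had less Sparc, Lama5 and Col4a1. Sparc had 40.6 and 40.1 CPM in MLL4 KO ESCs, against 246, 270 and 404 CPM (lowest, median and highest) in WT ESCs (-3.02, SE 0.21, adjusted p = 1.59e-14). Lama5, the broadly expressed alpha chain, had 28.9 and 26.7 CPM in MLL4 KO ESCs, against 154, 260 and 355 CPM in WT ESCs (-3.41, SE 0.25, adjusted p = 1.38e-13). Col4a1 had 2.07 and 2.252 CPM in MLL4 KO ESCs, against 5.37 to 12.6 CPM in WT ESCs (-2.01, SE 0.29, adjusted p = 6.27e-07). The groups did not overlap for these 3 genes, and 10.7% of all genes were called. Lamb1 (-0.93) was called only without MLL4 KO replicate 1 (-1.13). Per kilobase, MLL4 KO ESCs held Lamc1 at 67.9 CPM per kb, Nid1 at 39.4 CPM per kb, Hspg2 at 26.7 CPM per kb and Sparc at 15.3 CPM per kb, so that Sparc no longer led. Catalytically inactive LSD1 in MLL4 KO cells left Sparc low, at 29.8, 21.1, 32.1 and 22.0 CPM (-3.60, SE 0.16, adjusted p = 1.75e-21), and Lama5 low, at 41.4, 29.2, 43.5 and 39.7 CPM (-2.90, SE 0.18, adjusted p = 1.50e-16). Col4a2 was called too (-1.22), and Nid1 only without replicate 4 (-1.01), where 14.1% of all genes were called. Against WT libraries 10 and 11 alone Col4a2 was not called (-1.43, adjusted p = 0.0103) and Col4a1 was (-1.29).

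Loss of LSD1 in addition to MLL4 came with higher Sparc and Lama5 than inactive LSD1 did. Sparc had 171, 192, 163 and 175 CPM in MLL4/LSD1 DKO ESCs, against 29.8, 21.1, 32.1 and 22.0 CPM in MLL4 KO with LSD1 CI, a 6.57-fold difference (log2 2.71, SE 0.16, adjusted p = 2.12e-16). Lama5 had 76.6, 91.8, 95.0 and 90.4 CPM in MLL4/LSD1 DKO ESCs, against 41.4, 29.2, 43.5 and 39.7 CPM in MLL4 KO with LSD1 CI (1.18, SE 0.18, adjusted p = 3.02e-06). No library of one group overlapped the other for either gene. Lama4 was called as well, at 1.92, 2.03, 1.38 and 2.48 CPM in MLL4/LSD1 DKO ESCs, against 0.461, 0.984, 0.642 and 0.444 CPM in MLL4 KO with LSD1 CI (1.59, SE 0.41, adjusted p = 0.00298). That call was lost without MLL4/LSD1 DKO replicate 4 (1.45) or without MLL4 KO with LSD1 CI replicate 1 (1.49) or 4 (1.46). These were 3 of 10 genes where 8.17% of all genes were called. Against WT ESCs, MLL4/LSD1 DKO had lower Lama5 (-1.71), Nid1 (-1.68, 107, 140, 102 and 125 CPM) and Lama1 (-1.12), where 14.2% of all genes were called, and Sparc at -0.88 was not called. Against the neighbouring WT libraries 10 and 11 alone Lama1 was not called (-0.48, adjusted p = 0.348) and Col4a1 was (-1.11). Lama4 at 1.38 to 2.48 CPM in MLL4/LSD1 DKO ESCs overlapped the WT range, whereas LSD1 KO ESCs with MLL4 intact held 29.4 to 45.2 CPM.

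Induction of LSD1 in LSD1 KO cells moved 3 laminin chains, each opposite to its direction in untreated LSD1 KO ESCs. Kdm1a reached 2250, 2210, 980 and 986 CPM in LSD1Res ESCs with DOX, against 35.7, 38.1, 10.8 and 12.6 CPM without DOX. Lama4 had 3.25, 2.53, 4.59 and 6.03 CPM with DOX, against 10.3, 14.3, 22.8 and 32.7 CPM without DOX (-2.25, SE 0.31, adjusted p = 0.000234). Lamb1 had 60.3, 56.9, 40.9 and 45.8 CPM with DOX, against 111.6, 108, 116 and 129 CPM without DOX (-1.15, SE 0.13, adjusted p = 4.23e-05). Lama1 had 127, 124, 137 and 158 CPM with DOX, against 71.4, 65.3, 37.0 and 38.9 CPM without DOX (1.38, SE 0.26, adjusted p = 0.00239). The groups did not overlap for any of the 3, which were called where 2.37% of all genes were. The Lama1 call was lost without replicate 3 (1.24, adjusted p = 0.0110) or 4 (1.26, adjusted p = 0.0101) of the libraries without DOX. Hspg2 (0.67) and Sparc (-0.58) stayed below the size asked for. Summed endoderm markers were at 23.6 to 37.0 CPM with DOX, against 32.2 to 88.7 CPM without DOX. Of this sum Dab2 alone held 5.38, 6.86, 14.6 and 14.6 CPM with DOX, against 14.2, 15.6, 63.9 and 52.2 CPM without DOX. The part of these markers was not tested. The log2 ratio of Lama4 over Lama1 per kilobase averaged -4.45 with DOX, against -0.83 without DOX, and in untreated ESCs it averaged 0.90 in LSD1 KO, 1.14 in RCOR1/2 DKO and -5.73 in LSD1 CI, against -6.14 in WT.

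DOX made no call among the 10 genes where the transgene or RCOR was lacking. In LSD1 KO ESCs without the transgene, edgeR and DESeq2 called none, 1 gene had an unadjusted p below 0.05 and 0.0178% of all genes were called. There Lama4 had 31.6 and 23.4 CPM with DOX, against 33.2 and 24.1 CPM without DOX. The DOX effect in LSD1Res minus that in LSD1 KO was called for none of the 10 genes by edgeR, with 4 at an unadjusted p below 0.05 and 0.0178% of all genes called, while DESeq2 called Lamb1 and Lama4. These differences were -1.26 for Lamb1 (adjusted p = 0.0200) and -2.11 for Lama4 (adjusted p = 0.0957). In DKO + LSD1 ESCs, where both RCOR genes were lost, Kdm1a reached 1830, 2180, 6038 and 5761 CPM with DOX. Lama4 nevertheless had 38.2, 33.7, 25.6 and 28.4 CPM with DOX, against 55.9, 43.1, 33.7 and 36.3 CPM without DOX (-0.44, not called). Neither edgeR nor DESeq2 called any of the 10 genes there, with 4 at an unadjusted p below 0.05 and 0.332% of all genes called.

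**Figure D3:**
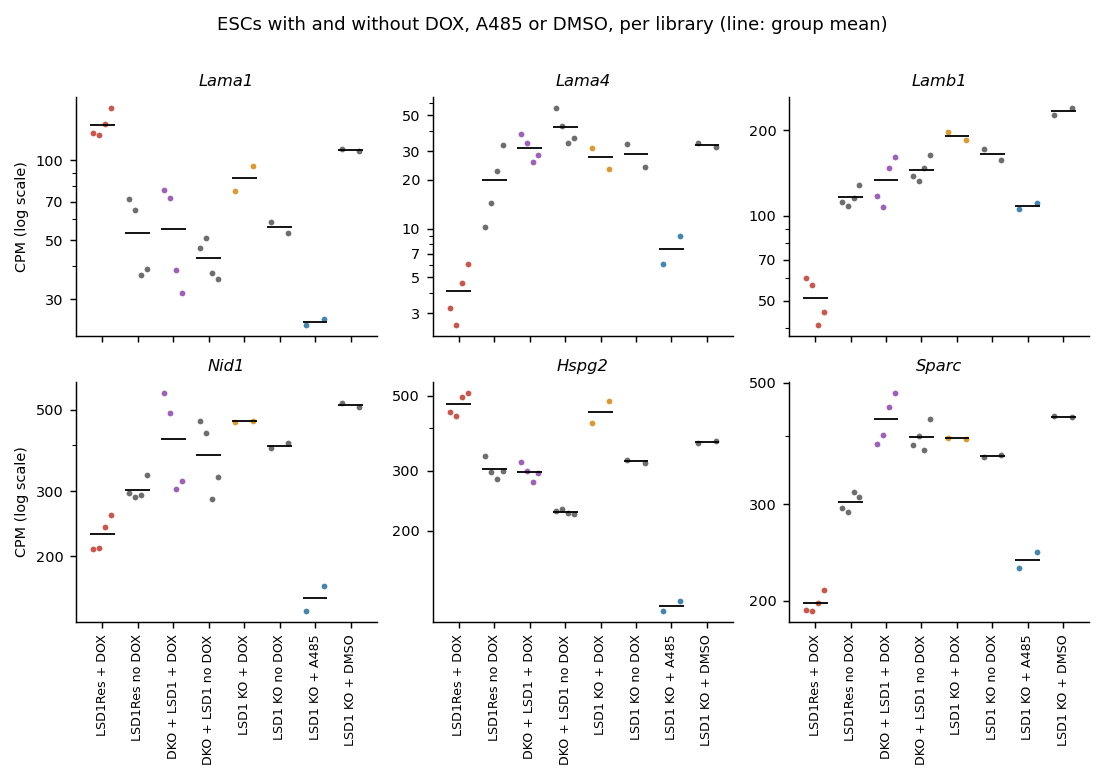
CPM per library (log scale) of 6 genes in ESCs with DOX or A485, each beside its own control, with lines at group means. Lama4 spans 2.53 to 6.03 CPM in LSD1Res with DOX and 10.3 to 32.7 CPM without, and 6.02 and 9.04 CPM in LSD1 KO with A485 and 33.5 and 32.1 CPM with DMSO.

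A485 lowered 5 of the 10 genes in LSD1 KO ESCs and raised 1, where 17.6% of all genes were called. The median log2 fold change was -1.05 over the 10 genes and 0.00 over all genes. Lama1 had 23.9 and 25.3 CPM with A485, against 110 and 109 CPM with DMSO (-2.21, SE 0.07, adjusted p = 2.15e-14). Lama4 had 6.02 and 9.04 CPM with A485, against 33.5 and 32.1 CPM with DMSO (-2.18, SE 0.16, adjusted p = 6.52e-08). Nid1 had 142 and 166 CPM with A485, against 521 and 509 CPM with DMSO (-1.80, SE 0.08, adjusted p = 2.44e-12). Lama1 and Lama4 thus fell by a similar amount, and their log2 ratio per kilobase averaged -1.08 in both groups. Hspg2 (116 and 124 CPM with A485, against 363 and 367 CPM with DMSO, -1.66) and Lamb1 (106 and 111 CPM with A485, against 227 and 241 CPM with DMSO, -1.17) were called with them. Lamc1 (-0.81) and Sparc (-0.93) fell short of the size asked for. Col4a2 was the gene that rose, at 8.31 and 8.24 CPM with A485, against 3.83 and 3.62 CPM with DMSO (1.09). The groups did not overlap for any of these genes. The summed naive pluripotency markers stood at 1645 to 1669 CPM with A485, against 4209 to 4287 CPM with DMSO, and the endoderm markers at 27.7 to 28.3 CPM, against 41.6 to 44.8 CPM, and their part in the result was not tested.

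LSD1 KO EBs had less collagen IV than WT EBs. Col4a1 had 74.0 and 67.1 CPM in LSD1 KO EBs, against 178, 253 and 403 CPM (lowest, median and highest) in 7 WT EB libraries (-2.03, SE 0.30, adjusted p = 2.79e-05). Col4a2 had 26.5 and 25.8 CPM in LSD1 KO EBs, against 116, 150 and 209 CPM in WT EBs (-2.61, SE 0.34, adjusted p = 8.87e-06). No library overlapped for either gene. They were the only 2 of the 10 genes called, where 13.7% of all genes were called. Lama4 had 8.10 and 6.46 CPM in LSD1 KO EBs, against 4.23, 27.4 and 63.0 CPM in WT EBs, which vary widely (-2.17, adjusted p = 0.0465, not called). Set against LSD1 CI EBs, LSD1 KO EBs again had lower Col4a1 (-2.68, SE 0.32, adjusted p = 7.02e-06) and Col4a2 (-3.09, SE 0.37, adjusted p = 6.16e-06), where 11.4% of all genes were called. In LSD1 CI EBs Col4a1 had 351, 355, 469 and 565 CPM and Col4a2 had 163, 157, 233 and 302 CPM, and none of the 10 genes was called against WT EBs by edgeR or DESeq2, with 5 at an unadjusted p below 0.05 and 2.54% of all genes called. The summed endoderm markers were at 346 to 357 CPM in LSD1 KO EBs, against 307 to 714 CPM in WT EBs, with 7 of 14 called lower and 1 higher (median -2.27), Gata6 among them at 10.1 and 11.4 CPM in LSD1 KO EBs, against 27.1 to 125 CPM in WT EBs, and the naive pluripotency markers at 610 to 680 CPM in LSD1 KO EBs, against 198 to 467 CPM in WT EBs. The part of these markers in the collagen IV result was not tested.

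RCOR1/2 DKO EBs showed the lowest collagen IV of the untreated EBs. Col4a1 had 22.7, 23.2, 28.7 and 24.6 CPM in RCOR1/2 DKO EBs, against 178 to 403 CPM in WT EBs (-3.57, SE 0.24, adjusted p = 2.07e-10). Col4a2 had 5.81, 8.46, 8.31 and 9.21 CPM in RCOR1/2 DKO EBs, against 116 to 209 CPM in WT EBs (-4.36, SE 0.28, adjusted p = 1.16e-10). Sparc had 124, 126, 128 and 121 CPM in RCOR1/2 DKO EBs, against 207, 241 and 335 CPM in WT EBs (-1.04, SE 0.14, adjusted p = 2.92e-06). These 3 genes did not overlap between the groups. Lama4 (4.16, 5.54, 4.42 and 4.93 CPM in RCOR1/2 DKO EBs, -2.81, adjusted p = 0.000919) and Lama1 (24.3, 24.5, 25.9 and 23.6 CPM in RCOR1/2 DKO EBs, -1.05, adjusted p = 0.00845) were called as well. So 5 of the 10 genes were called where 26.4% of all genes were, with a median log2 fold change of -0.89 over the 10 genes and -0.03 over all genes. The Lama1 call was lost without any one of the 4 RCOR1/2 DKO libraries (-1.03 to -1.07, adjusted p = 0.0194 to 0.0238), and against WT libraries 6 and 7 alone only Col4a1 (-3.52) and Col4a2 (-4.29) were called. The summed endoderm markers were at 96.9 to 100 CPM in RCOR1/2 DKO EBs, against 307 to 714 CPM in WT EBs. The mesenchymal markers were at 756 to 963 CPM, against 1674 to 3449 CPM, and the naive pluripotency markers at 1308 to 1434 CPM, against 198 to 467 CPM, and their part in the result was not tested. Per kilobase, Sparc (47.2 CPM per kb), Lama5 (33.6), Lamb1 (32.4) and Lamc1 (29.4) led in RCOR1/2 DKO EBs, and Col4a1 (3.74) and Col4a2 (1.23) stood near the end of the order.

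**Figure D4:**
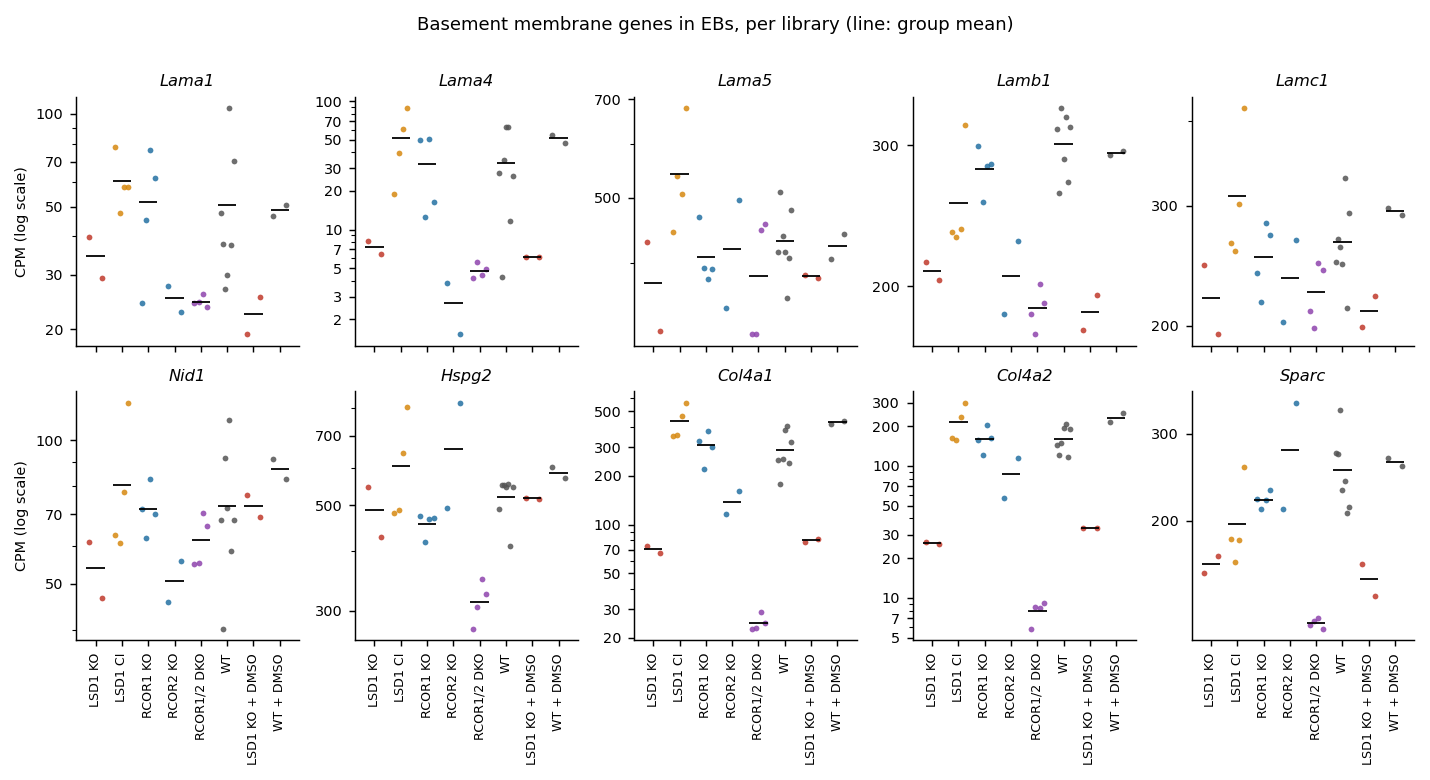
CPM per library (log scale) of the 10 genes in EBs of 5 mutants and WT, and in LSD1 KO and WT EBs with DMSO, with lines at group means. Col4a1 stands at 74.0 and 67.1 CPM in LSD1 KO and 22.7 to 28.7 CPM in RCOR1/2 DKO EBs, below the WT range of 178 to 403 CPM.

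Of the single RCOR mutants, RCOR2 KO alone had a call in EBs. None of the 10 genes was called in RCOR1 KO EBs by edgeR or DESeq2, with 0 at an unadjusted p below 0.05 and 0.00558% of all genes called. In the 2 libraries labelled RCOR2 KO EBs, Col4a1 had 117 and 160 CPM, against 178 to 403 CPM in WT EBs (-1.12, SE 0.28, adjusted p = 0.00969), and 5.28% of all genes were called. This was the only call among the 10 genes and was lost without replicate 1 (-0.91, adjusted p = 0.161) or 2 (-1.39, adjusted p = 0.0507). Lama4 had 3.81 and 1.52 CPM in RCOR2 KO EBs, below each WT library, but was not called (-3.69, adjusted p = 0.0110). Endoderm markers summed to 93.7 to 142 CPM in RCOR2 KO EBs, against 307 to 714 CPM in WT EBs, with 7 of 14 called lower, and their part was not tested.

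With DMSO, LSD1 KO EBs had lower collagen IV, as the untreated LSD1 KO EBs did. Col4a1 had 78.6 and 82.0 CPM in LSD1 KO EBs, against 418 and 436 CPM in WT EBs (-2.50, SE 0.17, adjusted p = 4.43e-07). Col4a2 had 34.1 and 33.6 CPM in LSD1 KO EBs, against 215 and 250 CPM in WT EBs (-2.87, SE 0.22, adjusted p = 1.08e-06). Lama4, which varies less here between WT libraries, had 6.08 and 6.12 CPM in LSD1 KO EBs, against 55.2 and 47.8 CPM in WT EBs (-3.16, SE 0.17, adjusted p = 9.93e-08). Lama1 had 19.2 and 25.4 CPM in LSD1 KO EBs, against 46.6 and 50.7 CPM in WT EBs (-1.21, SE 0.27, adjusted p = 0.00413), and was not called without WT replicate 1 (-1.27) or 2 (-1.16) or LSD1 KO replicate 1 (-1.02). In all 4 of the 10 genes were called, where 18.8% of all genes were called. The summed endoderm markers were at 234 to 308 CPM in LSD1 KO EBs, against 532 to 579 CPM in WT EBs, and the mesenchymal markers at 1549 to 1776 CPM, against 2982 to 3180 CPM. Fn1 alone averaged 831 CPM in LSD1 KO EBs, against 2305 CPM in WT EBs. Of 12 mesenchymal markers 7 were called lower and 1 higher. The part of these markers was not tested.

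A485 lowered 4 of the 10 genes in LSD1 KO EBs, where 13.8% of all genes were called. Lama4 had 1.20 and 1.58 CPM with A485, against 6.08 and 6.12 CPM with DMSO (-2.02, SE 0.20, adjusted p = 1.16e-05). Col4a1 had 31.7 and 21.3 CPM with A485, against 78.6 and 82.0 CPM with DMSO (-1.51, SE 0.17, adjusted p = 2.99e-05). Nid1 had 23.5 and 26.2 CPM with A485, against 76.6 and 68.9 CPM with DMSO (-1.46, SE 0.13, adjusted p = 6.32e-06). No library overlapped for these genes. Col4a2 had 16.4 and 9.15 CPM with A485, against 34.1 and 33.6 CPM with DMSO (-1.32, adjusted p = 0.000576), and was not called without A485 replicate 2 (-0.95). Lama1 (15.7 and 7.79 CPM with A485, -0.84) was called only without A485 replicate 1 (-1.43). Mesenchymal markers summed to 622 to 673 CPM with A485 (Prrx1 at 0), against 1549 to 1776 CPM with DMSO, and endoderm markers to 71.9 to 94.3 CPM, against 234 to 308 CPM. Fn1 alone averaged 831 CPM with DMSO, and 10 of 12 mesenchymal markers were called lower with A485. Naive pluripotency markers summed to 1475 to 1521 CPM with A485, against 604 to 652 CPM with DMSO, and the part of these markers was not tested.

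In serum and in EpiLC medium none of these genes was called between genotypes, with 2 libraries in each group. In serum, edgeR and DESeq2 called none of the 10 in LSD1 KO against WT (4 at an unadjusted p below 0.05, with 9.55% of all genes called) or in LSD1 CI against WT (3, with 2.99% called). With A485 in LSD1 KO serum cells none was called by either tool (2 at an unadjusted p below 0.05, with 12.5% of all genes called). Col4a1 had 52.1 and 63.4 CPM in LSD1 KO serum cells, 93.0 and 161 CPM in LSD1 CI and 91.4 and 104 CPM in WT. Col4a2 was called in LSD1 CI serum cells only without LSD1 CI replicate 1 (1.23). In EpiLCs neither tool called any of the 10 in LSD1 KO (5 at an unadjusted p below 0.05, with 9.49% of all genes called) or LSD1 CI (5, with 2.15% called). Sparc had 183 and 202 CPM in LSD1 KO EpiLCs, against 96.8 and 106 CPM in WT EpiLCs, without overlap but under the size asked for (0.88, adjusted p = 2.54e-07). Nid1 had 32.9 and 39.2 CPM in LSD1 KO EpiLCs, against 15.8 and 21.8 CPM in WT EpiLCs (0.89), and was called without LSD1 KO replicate 1 (1.03) or WT replicate 2 (1.17). In LSD1 CI EpiLCs Col4a2 averaged 5.98 CPM, against 14.9 CPM in WT EpiLCs, without overlap but not called (-1.31, adjusted p = 0.139). Col4a1 did not overlap there either (-0.83, adjusted p = 0.0127). WT EpiLC replicate 1 held the lower Col4a1 and Col4a2 of the pair, and without it Col4a2 was called in LSD1 KO (-1.28) and Col4a1 (-1.12) and Col4a2 (-1.82) in LSD1 CI EpiLCs. With A485, Nid1 had 97.7 and 115 CPM in LSD1 KO EpiLCs, against 32.9 and 39.2 CPM with DMSO (1.45, SE 0.17, adjusted p = 8.91e-05), the one call where 17.6% of all genes were called. Its direction was the opposite of that in LSD1 KO ESCs and EBs, where A485 lowered Nid1, though the difference between cultures was not tested. The paper used a higher A485 dose in ESCs than in EBs, so dose differs between cultures as well.

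The effect of a mutation on these genes differed between EBs and ESCs, tested as the log2 fold change in EBs minus that in ESCs in one fit. For LSD1 KO this difference was called for 7 of the 10 genes, where 18.9% of all genes were called. Lama4 had the widest difference (-7.38), since LSD1 KO raised it in ESCs and its level in LSD1 KO EBs (8.10 and 6.46 CPM) lay in the lower part of the WT range. For RCOR1/2 DKO it was called for 5 genes, where 20.5% of all genes were called, with Lama4 at -8.35, Col4a2 at -4.96 and Col4a1 at -4.49. For RCOR2 KO it was called for 3 genes where 6.79% of all genes were called, and it rests on the 2 libraries labelled RCOR2 KO EBs. For LSD1 CI (3 at an unadjusted p below 0.05, with 3.25% of all genes called) and RCOR1 KO (0, with 0.0% called) edgeR and DESeq2 called it for none of the 10.

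Other genes of the basement membrane and of its cells were taken from gene lists by role. The clearest other laminin gene was Lama3, an alpha chain of epithelial laminins. It had 64.9 to 81.4 CPM in LSD1 KO ESCs, 47.5, 76.4, 46.6 and 75.2 CPM in LSD1 CI ESCs and 93.7, 93.6, 95.5 and 100 CPM in RCOR1/2 DKO ESCs, against 13.5 to 22.1 CPM in WT ESCs. So Lama3 rose with inactive LSD1 too (log2 fold change 1.74), unlike Lama4, and its difference between LSD1 KO and LSD1 CI ESCs was not called (0.33, adjusted p = 0.0742). In EBs Lama3 stood at 16.7 and 11.5 CPM in LSD1 KO and 72.2, 73.4, 81.0 and 80.8 CPM in RCOR1/2 DKO, against 0.319 to 1.34 CPM in WT (3.96 and 6.37), while collagen IV fell in the same libraries. It also rose in LSD1 KO serum cells (44.7 and 36.7 CPM, against 4.30 and 3.77 CPM in WT, 3.33) and LSD1 KO EpiLCs (71.7 and 76.3 CPM, against 16.8 and 11.8 CPM in WT, 2.34). With LSD1 CI it rose in serum cells (14.4 and 11.6 CPM, 1.72) and EpiLCs (32.9 and 39.8 CPM, 1.37) as well. In LSD1 CI EBs, however, Lama3 stood at 0.582, 0.796, 0.55 and 1.91 CPM, which overlap the 0.319 to 1.34 CPM of WT EBs. In MLL4 KO ESCs it fell to 1.92 and 3.07 CPM (-2.93), and in MLL4/LSD1 DKO ESCs it had 59.0, 51.1, 42.97 and 61.9 CPM, against 2.999, 2.90, 5.08 and 4.78 CPM in MLL4 KO with LSD1 CI (3.74).

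Among the other basement membrane components, 2 were called higher and 6 lower of 21 tested in LSD1 KO ESCs, with a median log2 fold change of -0.35, where 21.0% of all genes were called with a median of -0.08. The largest were Frem2 (-3.67), a protein of epidermal basement membranes, and Pxdn (-2.25), the peroxidase that crosslinks collagen IV, both lower, and Lama3 (2.07). In RCOR1/2 DKO ESCs, where 17.7% of all genes were called with a median of -0.06, 4 were higher and 3 lower, with Hmcn1 (3.27) and Lama2 (2.93), the alpha chain of muscle laminin, among the higher. Matrix receptors were called 3 higher and 1 lower of 13 in LSD1 KO ESCs, where the collagen receptor Ddr2 rose (4.86) and the fibronectin receptor chain Itga5 fell (-2.23), and 3 higher and 0 lower in RCOR1/2 DKO ESCs. The SPARC family and other matricellular genes were called 6 higher and 0 lower of 12 in LSD1 KO ESCs (median 1.57) and 7 higher and 0 lower in RCOR1/2 DKO ESCs (median 1.40), with Sparcl1 at 1.86 and 2.09. For folding and secretion 1 was higher and 5 were lower of 21 in LSD1 KO ESCs, where Plod1, a lysyl hydroxylase of collagen, fell (-1.33). The lower genes of this list include Mia3, which had 0 counts in exactly the 9 libraries aligned differently. In MLL4 KO ESCs, where 10.7% of all genes were called, 6 of the other components were lower and 2 higher of 21 tested. Of 13 receptors 6 were lower and 0 higher, among them the laminin receptor Bcam (-4.69) and the laminin-binding integrin chain Itga3 (-3.38). The collagen chaperone Serpinh1 fell as well (-3.55).

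The same lists were counted in EBs. Between WT EBs and WT ESCs, where 36.6% of all genes were called with a median log2 fold change of 0.06, 14 other components were called higher and 3 lower of 23 (median 2.28), among them Col4a6 (10.75) and the Fras1 gene of epidermal basement membranes (5.23). Endoderm markers were called 11 higher and 0 lower of 14 (median 4.98), with Gata6 at 8.31 and Foxa2 at 7.95. In RCOR1/2 DKO EBs, where 26.4% of all genes were called (median -0.03), 12 components were lower and 1 higher of 23 (median -1.42), 6 folding and secretion genes were lower and 1 higher, and 8 endoderm markers were lower and none higher (median -2.23). Examples are Serpinh1 (-2.24), the prolyl hydroxylase of collagen IV P3h2 (-4.13) and Gata6 (-7.33). In LSD1 KO EBs, where 13.7% of all genes were called (median 0.02), 6 components were lower and 1 higher of 23. Of 14 endoderm markers 7 were lower and 1 higher (median -2.27), with Sox17 (-5.24) and Foxa2 (-3.21) among the lower. P3h2, of the folding and secretion list, fell too (-2.95). In LSD1 KO EBs with DMSO, where 18.8% of all genes were called, the counts were 8 lower and 1 higher for components and 8 lower and 1 higher for endoderm markers. A485 in LSD1 KO EBs, where 13.8% of all genes were called, gave 8 lower and 1 higher components, with Col4a5 (-3.01) and Col4a6 (-3.45) falling beside Col4a1 and Col4a2, and 10 mesenchymal markers lower and 0 higher of 12. These lists describe their genes, and no test of a list as a whole was made.

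Across the 34 group means, Col4a1 and Col4a2 varied together (Pearson r = 0.98 of log2(CPM + 1)), which is described with no test, since groups share cell lines and experiments. Their log2 ratio per kilobase nevertheless ran between 0.26 in LSD1 KO ESCs with A485 and 1.88 in LSD1 CI EpiLCs. Lamc1 followed Nid1 (r = 0.90) and Lama1 followed Nid1 (r = 0.80), and Lamc1 ran against Col4a1 (r = -0.68). Among 13320 genes with a mean of at least 5 CPM in some group, those most like the mean profile of Lama1, Lamb1, Lamc1, Col4a1 and Col4a2 were Gdpd5 (r = 0.92), Macroh2a2 (0.89), Tuft1 (0.89), Stard8 (0.88) and Furin (0.87). That mean joins genes that varied together (Col4a1 and Col4a2) with genes that ran against each other (Lamc1 and Col4a1), so it is not a profile they share.

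**Figure D5:**
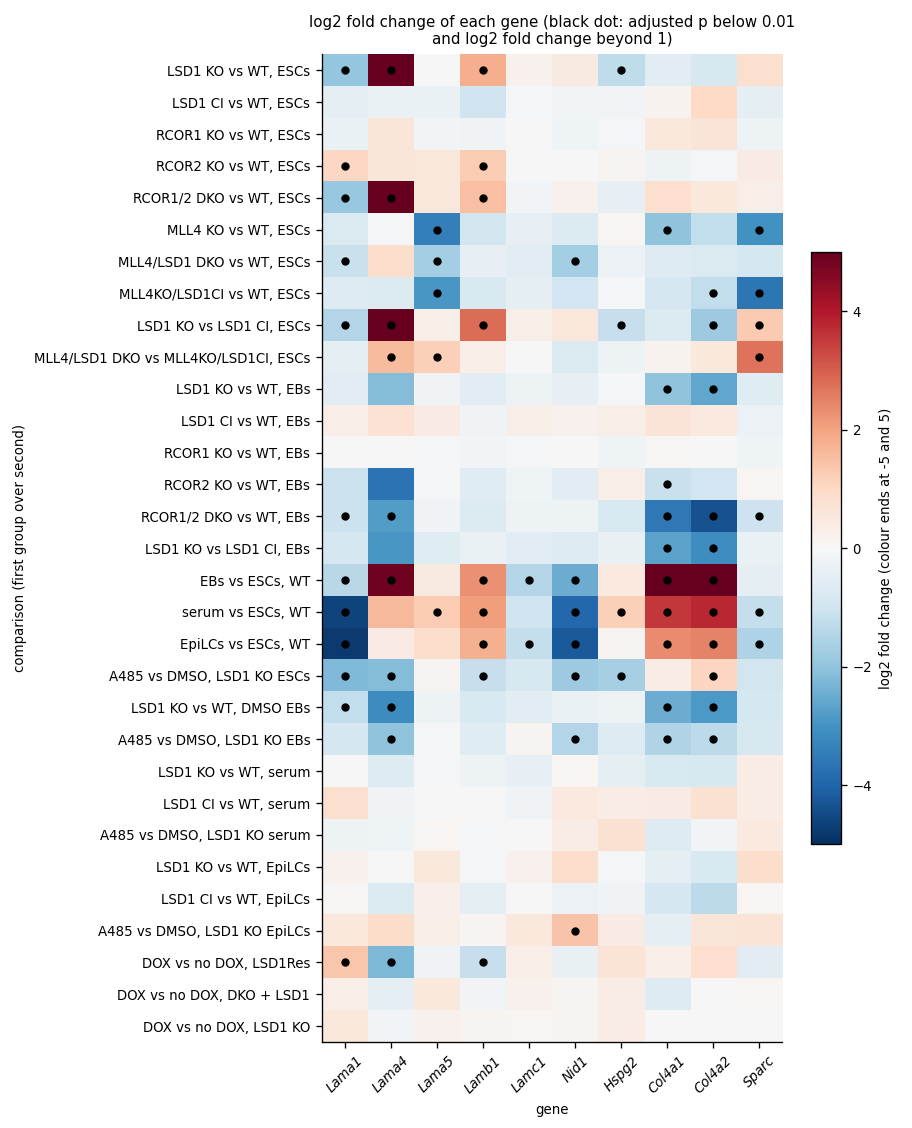
Log2 fold change of the 10 genes (columns) in 31 comparisons (rows, first group over second), with colour ending at -5 and 5 and black dots on the 77 of 310 values that were called. Lama4 is strongly positive in LSD1 KO (5.17) and RCOR1/2 DKO ESCs (5.46), and Col4a1 and Col4a2 are negative in LSD1 KO and RCOR1/2 DKO EBs.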

How the data were processed

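RNA was sequenced from rRNA-depleted, directional libraries of 112 samples. Per the methods of the study and the labels, the authors trimmed reads with Trim Galore, aligned them to mm9 with STAR 2.7.9a, removed duplicates with Picard 2.25.5 and deposited raw counts per gene made by featureCounts, which read the strand in reverse. Even numbers made up 72.2% to 84.7% of the low counts, a sign that both mates of a fragment were counted. Samples were grouped by the genotype, culture and treatment in their labels, and no pair of libraries held identical counts.

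Depth was 17.2 M to 58.2 M counts, and the ribosomal precursor Rn45s took 8.06% to 24.9% of them. CPM is the count scaled to the library total and levels per kb divide it by the exon length in the tables. Tests were made in R 4.3.3 by edgeR 4.0.16 (libraries scaled by TMM, low genes removed by filterByExpr, robust quasi-likelihood fit, two-sided F test), in one fit per experiment over all of its groups: ESCs, EBs, WT cultures, A485 in ESCs, DMSO and A485 in EBs, serum, EpiLCs, DOX, and ESCs with EBs for differences of effects. P-values were adjusted over all genes tested by Benjamini and Hochberg, and genes were called at an adjusted p below 0.01 and a log2 fold change beyond 1. Standard errors were obtained from the log2 fold change and its F statistic. In all 37 comparisons were made, with 370 tests of the 10 genes, of which 92 were called. The fits were tested on simulated data.

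The 10 genes and the other 12 lists were chosen with earlier results of these data known. All 10 are described in each comparison, and from each list up to 4 called genes with the smallest adjusted p, the text printing part of these. The 5 most similar genes were ranked by Pearson correlation with the mean profile over 34 group means of log2(CPM + 1). Alternatives were DESeq2 1.42.0 and its size factors, no filter, halved counts, no Rn45s, a replicate block, fewer groups or WT libraries, an alignment term, other LSD1 KO libraries, and each replicate left out. Replicate numbers paired the samples, with every correlation above 0.1, in LSD1Res (0.66 to 0.71), DKO + LSD1 (0.59 to 0.66) and MLL4/LSD1 DKO with MLL4 KO with LSD1 CI (0.16 to 0.44). The upstream windows were read from the NCBIM37 genome at the gene starts of the count tables. Python 3.11.15, pandas 2.3.3, NumPy 2.4.6 and matplotlib 3.10.9 were used for summaries and plots.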

Additional observations from a re-analysis of the deposited data

Results flagged for a closer look

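The effect of LSD1 KO on 7 genes differed between EBs and ESCs, given as the log2 fold change in EBs minus that in ESCs with its SE and adjusted p from edgeR's interaction test. Lama4 differed by -7.38 (SE 0.88, adjusted p = 2.44e-09), Lamb1 by -2.36 (SE 0.25, adjusted p = 1.64e-10), Col4a2 by -1.87 (SE 0.41, adjusted p = 0.000187), Col4a1 by -1.55 (SE 0.32, adjusted p = 9.12e-05) and Sparc by -1.47 (SE 0.22, adjusted p = 4.37e-07). Lama1 (1.38, SE 0.43, adjusted p = 0.00788) and Hspg2 (1.16, SE 0.23, adjusted p = 3.62e-05) differed in the other direction. These 2 rest on the untreated LSD1 KO ESC libraries, the set of LSD1 KO ESCs in which the falls of both genes were called. The Lama1 difference was not called without LSD1 KO EB replicate 1 (1.17) or 2 (1.63), with the alignment term (1.46, adjusted p = 0.0143), with no filter (adjusted p = 0.0121) or with the compared groups only (adjusted p = 0.0145), and the Hspg2 difference was 0.93 with the alignment term and not called.

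The effect of RCOR1/2 DKO differed between EBs and ESCs for Lama4 (-8.35, SE 0.69, adjusted p = 2.26e-14), Col4a2 (-4.96, SE 0.37, adjusted p = 6.16e-16), Col4a1 (-4.49, SE 0.29, adjusted p = 6.26e-18), Lamb1 (-2.30, SE 0.21, adjusted p = 5.92e-13) and Sparc (-1.46, SE 0.19, adjusted p = 1.12e-08). The effect of RCOR2 KO differed for Lama4 (-4.32, SE 0.82, adjusted p = 0.000138), Lama1 (-2.14, SE 0.49, adjusted p = 0.00143) and Lamb1 (-1.91, SE 0.25, adjusted p = 3.69e-07). Without RCOR2 KO EB replicate 2 Lama4 (-3.78) and Lama1 (-1.99) were not called, and Lama1 was not called without replicate 1 (-2.21) or with the compared groups only (adjusted p = 0.0128).

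A library far from the others was looked for in 150 tests, each of 1 gene in 1 group of 4 to 10 libraries, and 5 tests found one, where chance gives about 1 in 20. They were Lama5 in RCOR1 KO EB replicate 1 (468 CPM, others 378 to 393), Lamb1 in LSD1 CI EB replicate 4 (318 CPM, others 230 to 236), Col4a2 in MLL4/LSD1 DKO ESC replicate 1 (1.06 CPM, others 1.94 to 2.08), Hspg2 in RCOR1 KO ESC replicate 4 (329 CPM, others 316 to 318) and Hspg2 in RCOR1 KO EB replicate 2 (419 CPM, others 467 to 474).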

How the results depend on the processing

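Of all combinations of a result and an alternative, 4323 kept the direction and the side of the thresholds, 49 lost a call, 27 gained one and 1 turned round. Col4a2 turned round in LSD1 KO ESCs without DOX set against WT (1.42). The count of the 10 genes called in LSD1 KO ESCs was 4, and 2 with the solvent-treated LSD1 KO libraries. With the LSD1 KO libraries without DOX, Lama4, Lamb1 and Col4a2 were called, and Lama1 and Hspg2 were not. In RCOR2 KO ESCs it was 2, and 0 against the WT libraries listed beside them. In RCOR2 KO EBs it was 1, 2 by DESeq2, and 0 with DESeq2 size factors, no filter, a replicate block, the compared groups only, the neighbouring WT libraries or either RCOR2 KO library left out. In RCOR1/2 DKO EBs it was 5, and 2 against the neighbouring WT libraries. It was 0 in LSD1 CI ESCs and 1 with a replicate block (Lamb1, -1.12) or without any 1 of the LSD1 CI libraries, and 0 in LSD1 CI EpiLCs, 1 with no filter or a replicate block and 0 to 2 with a replicate left out. With a replicate left out it was 0 to 1 in LSD1 CI serum cells and in LSD1 KO EpiLCs. For the difference of RCOR2 KO effects it was 3, and 1 without RCOR2 KO EB replicate 2. For the difference of DOX effects it was 0, and 2 by DESeq2. The causes were not tested, except that leaving out libraries and neighbouring WT libraries leaves fewer samples. Where numbers pair the samples, the block changed no call of the 10 genes. Elsewhere samples share only a number, and the block gained Lamb1 in MLL4 KO (-1.10), Sparc in MLL4/LSD1 DKO (-1.09), Nid1 in MLL4 KO with LSD1 CI ESCs (-1.09) and Lamc1 in WT serum cells (-1.05), and lost Lama1 in RCOR1/2 DKO EBs (-0.55) and in LSD1 KO EBs with DMSO (adjusted p = 0.0633). With 2 libraries in 18 of 34 groups, and Lama4 and collagen IV at a few CPM in ESCs, smaller differences were not detectable at this depth and number of samples.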
